A study of Mus musculus with 9 samples.

Results

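The 10 genes described here control whether a muscle precursor leaves the cell cycle. They are 4 inhibitors of cyclin-dependent kinases (Cdkn1a, Cdkn1b, Cdkn2c and Cdkn2d), the 3 D cyclins (Ccnd1, Ccnd2 and Ccnd3) and the 3 pocket proteins (Rb1, Rbl1 and Rbl2). They were chosen by name, and each matched 1 row in both deposited tables of 55421 genes. RNA-seq had been carried out on C2C12 myotubes, muscle fibres formed in culture from a mouse myoblast line, after 4 days in differentiation medium. The cultures were exposed for 4 h to an adenovirus at a multiplicity of infection of 3, and RNA was taken at 48 h. One virus carried LacZ, a bacterial enzyme, as the control, the next carried HA- and Flag-tagged full-length PGC-1α (FL), and the last carried the tagged protein without its C-terminal domain (dCTD). Each virus had 3 libraries, called biological replicates in the series' design text. All cultures were infected, so none shows uninfected cells. The promoter that drove the transgenes is not given in the sources used here.

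PGC-1α is a transcriptional coactivator that raises mitochondrial gene expression, and its C-terminal domain holds RNA-binding motifs. D cyclins bind and activate CDK4 and CDK6, which phosphorylate the pocket proteins and so release E2F factors to transcribe genes of S phase. The Cdkn2 proteins bind CDK4 and CDK6 and keep D cyclins off them, whereas the Cdkn1 proteins bind complexes of cyclin and CDK, above all those of CDK2. Muscle differentiation is known for a rise of Cdkn1a, Ccnd3 and Rb1 as myoblasts leave the cycle, and the kinase complexes are then held inactive.

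Depth was 87090490 to 123446198 counts per library over the 9 libraries. Ppargc1a, the gene for PGC-1α, had a normalized count of 397 ± 13.0 (SD, n = 3) with LacZ, 211489 ± 14759 with FL and 112756 ± 10934 with dCTD. The count was thus 1.88-fold higher with FL than with dCTD. It is not corrected for transcript length, and the dCTD construct lacks the part for the C-terminal domain, so the ratio of transcripts was not measured. Reads of the transgene and of the endogenous gene are summed in these counts, and protein was not measured. All 17 myotube marker genes of the list used here were above the filter on low values. In normalized counts their summed level ranged from 1848206 to 1923008 in the LacZ libraries, from 1070498 to 1083211 in the FL libraries and from 1269683 to 1355800 in the dCTD libraries. In bulk RNA, fewer cells of a type and less RNA per cell cannot be told apart.

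The normalized count is the read count of a gene divided by a factor for the size of its library, and the counts printed per library are on 1 scale shared by the 9 libraries. A fold change is the difference of log2(normalized count + 1) between groups. For FL and dCTD against LacZ it was fitted within the deposited table of that comparison, on the table's own scale, and for FL against dCTD on the shared scale. It is given with its standard error from limma, a linear model fitted across all genes, and "passed" means an adjusted p under 0.05. All 10 genes passed the filter on low values. With FL, 7 of the 10 differed from LacZ, 4 higher and 3 lower, where 59.2% of all tested genes did. With dCTD, 5 of the 10 differed from LacZ, 3 higher and 2 lower, against 44.8% of all tested genes. Between FL and dCTD 6 differed, 3 each way, against 38.9%. The libraries of the groups did not overlap for 8 of the 10 with FL against LacZ (64.1% of all tested genes), for 8 with dCTD against LacZ (51.9%) and for 7 with FL against dCTD (48.6%). The comparisons with LacZ share the LacZ libraries. The called share of the 10 genes was 70% and 50% in the comparisons with LacZ and 60% in FL against dCTD. With so few genes, these shares were not tested against those of all genes, and the values of single genes are described instead. The median absolute log2 fold change of the 10 was 0.41, 0.16 and 0.13 in the 3 comparisons, beside 0.24, 0.17 and 0.15 over all tested genes. The coefficient of variation within a group of 3 libraries was 0.488% to 9.68% over these genes.

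**Figure D1:**
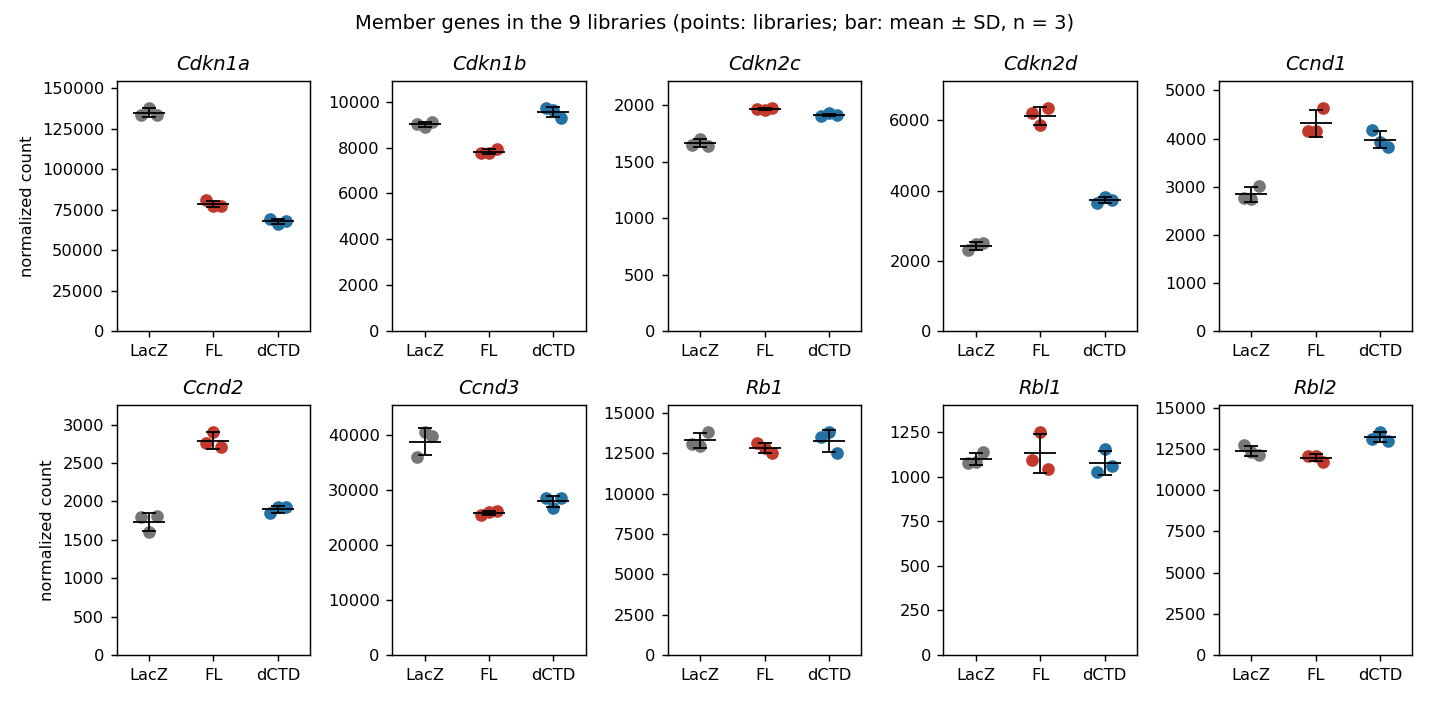
Normalized counts (linear axis from 0) of the 10 genes in each library, with LacZ in grey, FL in red and dCTD in blue; horizontal bars give the mean and whiskers the SD of 3 libraries. Cdkn1a and Ccnd3 were lower with both PGC-1α forms, Cdkn2d and Ccnd1 higher with both, and Ccnd2 stood clearly above LacZ with FL.

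The sequences before the transcription start are shown for genes that fell with both forms (Cdkn1a and Ccnd3), for the gene that rose most (Cdkn2d), and for Rbl1, a textbook E2F target that passed in none of the comparisons. They are from RefSeq (GRCm38.p6, the assembly also called mm10), in which 7 of the 10 genes matched with 10 start sites. Each run is the 250 bases before a start, 5′ to 3′ on the gene's strand, and capitals mark matches to the motifs searched. Cdkn1a has an upstream start (chr17:29090729-29090978, plus strand) and a downstream start (chr17:29093519-29093768, plus strand). Ccnd3 likewise has an upstream start (chr17:47504801-47505050, plus strand) and a downstream one (chr17:47593217-47593466, plus strand). The Cdkn2d run is chr9:21291210-21291459 and the Rbl1 run chr2:157204535-157204784, both on the minus strand. In the deposited annotation the Cdkn2d gene reaches 21291407, upstream of the RefSeq start used here. Most of its run, with all 3 marked Sp1 matches, therefore lies within the annotated gene. The downstream runs of Cdkn1a and Ccnd3 likewise lie within their annotated genes.
Cdkn1a, upstream start: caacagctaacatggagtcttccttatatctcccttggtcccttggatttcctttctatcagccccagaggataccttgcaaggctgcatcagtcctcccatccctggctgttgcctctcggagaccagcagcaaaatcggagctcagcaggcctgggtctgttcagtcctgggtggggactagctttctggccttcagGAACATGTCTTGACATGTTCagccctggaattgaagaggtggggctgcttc
Cdkn1a, downstream start: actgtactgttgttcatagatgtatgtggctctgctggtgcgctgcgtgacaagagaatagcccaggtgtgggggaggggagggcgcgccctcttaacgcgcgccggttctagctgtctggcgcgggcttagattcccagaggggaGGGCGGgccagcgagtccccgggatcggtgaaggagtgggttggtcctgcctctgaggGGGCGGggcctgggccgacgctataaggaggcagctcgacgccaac
Cdkn2d: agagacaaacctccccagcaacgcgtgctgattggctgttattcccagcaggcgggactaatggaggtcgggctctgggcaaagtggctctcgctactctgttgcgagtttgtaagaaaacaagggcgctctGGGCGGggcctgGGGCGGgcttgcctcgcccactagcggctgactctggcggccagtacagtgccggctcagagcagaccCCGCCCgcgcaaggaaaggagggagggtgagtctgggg
Ccnd3, upstream start: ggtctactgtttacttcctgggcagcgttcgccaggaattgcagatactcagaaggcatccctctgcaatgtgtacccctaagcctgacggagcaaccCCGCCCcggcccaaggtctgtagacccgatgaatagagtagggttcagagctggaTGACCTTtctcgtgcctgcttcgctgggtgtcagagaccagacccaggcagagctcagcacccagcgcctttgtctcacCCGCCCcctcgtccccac
Ccnd3, downstream start: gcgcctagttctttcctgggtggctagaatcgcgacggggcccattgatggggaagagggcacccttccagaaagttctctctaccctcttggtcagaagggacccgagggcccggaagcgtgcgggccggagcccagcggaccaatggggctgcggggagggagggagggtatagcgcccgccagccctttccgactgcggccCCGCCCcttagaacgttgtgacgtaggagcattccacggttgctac
Rbl1: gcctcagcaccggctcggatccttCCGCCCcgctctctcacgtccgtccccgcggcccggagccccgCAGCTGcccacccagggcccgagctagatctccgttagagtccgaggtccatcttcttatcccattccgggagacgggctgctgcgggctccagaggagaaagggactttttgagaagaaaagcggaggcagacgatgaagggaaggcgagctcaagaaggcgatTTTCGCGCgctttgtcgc

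The motifs were searched on both strands in 32851 such windows of the genome, and in the genes described no match overlapped another. The E-box of MyoD and myogenin (CAGCTG) stands in 13% of windows, and among the runs above it was found in that of Rbl1. The E2F sites TTTCGCGC (0.256% of windows) and TTTGGCGC (0.417%) had 1 match in all, TTTCGCGC from 18 to 11 bases before the Rbl1 start. AAGGTCA, the site of estrogen-related receptors that PGC-1α coactivates (4.08%), had 1 match, before the upstream start of Ccnd3. GGGCGG, the Sp1 site (32.7%), was in all the runs above but that of the upstream Cdkn1a start. The cell cycle homology element TTTGAA (16%) was in none of them and had a match before Rbl2. The p53 response element in its strict form (0.00913%) had no match. With at most 1 mismatch, a choice made after the strict search, it stands in 0.0761% of windows and matched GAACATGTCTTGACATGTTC before the upstream start of Cdkn1a. A match is a description of the letters, and which start the myotubes used was not measured.

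Cdkn1a, which encodes p21, was by far the most abundant of the 10 and fell with both forms of PGC-1α (ENSMUSG00000023067, chromosome 17, 29090976 to 29100727 in mm10). Its normalized counts were 133495, 137879 and 133513 with LacZ, 80818, 77271 and 77545 with FL, and 69144, 65923 and 68122 with dCTD. The 3 groups did not overlap, and the dCTD libraries were lowest. The log2 fold change was -0.78 ± 0.04 with FL (limma, adjusted p = 1.24e-17) and with dCTD the level was 0.499 of that with LacZ (standard error 0.04 on the log2 scale, adjusted p = 1.91e-16). FL stood 0.21 ± 0.04 above dCTD on the log2 scale (adjusted p = 2.50e-05). Even after this fall its level per kilobase of exon exceeded that of each of the other 9 genes in every group.

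Cdkn2d, which encodes p19, an inhibitor of CDK4 and CDK6, showed the largest rise of the 10 (ENSMUSG00000096472, chromosome 9, 21288410 to 21291407). Its normalized counts were 2308, 2473 and 2502 with LacZ, 6198, 5855 and 6355 with FL, and 3635, 3831 and 3737 with dCTD. No groups overlapped, and dCTD stood between LacZ and FL. The level with FL was 2.53-fold that with LacZ (log2 1.34 ± 0.04, limma, adjusted p = 5.06e-22), and that with dCTD 1.53-fold (0.61 ± 0.04, adjusted p = 2.82e-11). The difference of 0.72 ± 0.04 between FL and dCTD also passed (adjusted p = 1.48e-13). Thus the rise was smaller with dCTD, in cultures whose Ppargc1a count, not corrected for construct length, was also lower. The part of that difference in Ppargc1a in this result was not tested.

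Cdkn2c, which encodes the related inhibitor p18, rose slightly with both forms (ENSMUSG00000028551, chromosome 4, 109660876 to 109667189). The counts were 1651, 1706 and 1641 with LacZ, 1972, 1960 and 1979 with FL, and 1911, 1929 and 1915 with dCTD. Both PGC-1α groups lay above LacZ without overlap, at 0.24 ± 0.05 (limma, adjusted p = 4.39e-05) and 0.20 ± 0.05 (adjusted p = 0.00125). The difference between FL and dCTD did not pass (0.04, 95% interval -0.05 to 0.13, adjusted p = 0.523).

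Cdkn1b, which encodes p27, was the inhibitor that passed with FL but not with dCTD (ENSMUSG00000003031, chromosome 6, 134920401 to 134925513). Its counts were 9023, 8901 and 9113 with LacZ, 7761, 7762 and 7933 with FL, and 9729, 9646 and 9308 with dCTD. All FL libraries were lowest and all dCTD libraries highest. It fell with FL (-0.20 ± 0.04, limma, adjusted p = 1.49e-05), did not pass with dCTD (0.08, interval 0.00 to 0.15, adjusted p = 0.0978), and was lower with FL than with dCTD (-0.29 ± 0.03, adjusted p = 1.16e-07). Of the other inhibitors, Cdkn2a and Cdkn2b, which encode p16 with p19Arf and p15, had 0 reads in all 9 libraries, where the floor of 3 counts is 0.0243 to 0.0344 CPM (counts per library scaled by depth). Cdkn3, a phosphatase that acts on CDKs, rose with FL (0.46 ± 0.12, adjusted p = 0.00106), and its adjusted p with dCTD was 0.422. Cdkn1c, which encodes p57, did not pass with FL (0.05 ± 0.07, adjusted p = 0.555), and its call with dCTD (0.18 ± 0.07, adjusted p = 0.0451) was lost in 9 of 14 alternative settings.

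Ccnd3, the D cyclin of differentiated muscle, fell with both forms (ENSMUSG00000034165, chromosome 17, 47505051 to 47599691). Its normalized counts were 35853, 40560 and 39805 with LacZ, 25402, 25925 and 26110 with FL, and 28465, 26745 and 28470 with dCTD. The LacZ libraries were all above the others. The log2 fold changes were -0.58 ± 0.04 (limma, adjusted p = 2.45e-13) and -0.48 ± 0.04 (adjusted p = 4.07e-09). The smaller difference between FL and dCTD (-0.11 ± 0.04, adjusted p = 0.036) was lost without FL replicate 1 (0.116), 2 (0.0672) or 3 (0.0611), and without dCTD replicate 1 (0.132) or 3 (0.11).

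Ccnd1, the D cyclin best known as a response to growth factors in dividing cells, rose with both forms (ENSMUSG00000070348, chromosome 7, 144929931 to 144939925). Its counts were 2755, 2746 and 3019 with LacZ, 4148, 4151 and 4637 with FL, and 4172, 3932 and 3825 with dCTD. Both PGC-1α groups were above LacZ, and they overlapped each other. The rises were 0.60 ± 0.05 (limma, adjusted p = 9.58e-12) and 0.48 ± 0.05 (adjusted p = 6.94e-09). FL against dCTD did not pass (0.12, interval 0.02 to 0.22, adjusted p = 0.0618), and passed when LacZ replicate 1 (0.0475), FL replicate 1 (0.048) or 2 (0.0443), or dCTD replicate 1 (0.0289) was left out.

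Ccnd2, the remaining D cyclin, differed most between the forms in this group (ENSMUSG00000000184, chromosome 6, 127125162 to 127152193). Its counts were 1799, 1603 and 1809 with LacZ, 2760, 2912 and 2704 with FL, and 1844, 1928 and 1922 with dCTD. The FL libraries stood apart above the other 6. The rise with FL was 1.61-fold (0.69 ± 0.05, limma, adjusted p = 4.76e-13), and FL exceeded dCTD by 0.56 ± 0.05 (adjusted p = 4.96e-10). With dCTD the change of 0.12 (interval 0.01 to 0.23) did not pass (adjusted p = 0.0617). It passed without LacZ replicate 1 (0.0365) and with the 9 libraries scaled together (0.0474).

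The pocket proteins passed in neither comparison with LacZ. Rb1, the retinoblastoma protein, holds E2F factors in check (ENSMUSG00000022105, chromosome 14, 73183673 to 73325822). Its counts were 13069, 12960 and 13844 with LacZ, 13110, 12819 and 12494 with FL, and 13490, 13807 and 12503 with dCTD. The 3 groups overlapped. The intervals were -0.13 to 0.03 for FL and -0.10 to 0.08 for dCTD on the log2 scale (limma, adjusted p = 0.243 and 0.861).

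Rbl2, which encodes p130, the pocket protein typical of resting cells, was lower with FL than with dCTD (ENSMUSG00000031666, chromosome 8, 91070057 to 91123844). Its counts were 12754, 12327 and 12129 with LacZ, 12100, 12104 and 11728 with FL, and 13124, 13574 and 12983 with dCTD. The dCTD libraries were highest and the FL libraries lowest, with no overlap, though FL and LacZ nearly touched. The difference of FL from dCTD was -0.14 ± 0.04 (limma, adjusted p = 0.00184), while FL against LacZ (-0.05, interval -0.13 to 0.03, adjusted p = 0.255) and dCTD against LacZ (0.09, interval 0.01 to 0.16, adjusted p = 0.0714) did not pass. The dCTD value passed without LacZ replicate 1 (0.0361) and with the 9 libraries scaled together (0.0498).

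Rbl1, which encodes p107, the pocket protein of cycling cells, was the least abundant (ENSMUSG00000027641, chromosome 2, 157145893 to 157204534). Its counts were 1078, 1083 and 1137 with LacZ, 1094, 1253 and 1043 with FL, and 1024, 1154 and 1058 with dCTD. The groups overlapped and the adjusted p-values by limma were 0.641, 0.647 and 0.458. When each library was scaled by the sum of its counts, Ppargc1a left out, in place of the deposited factors (or, for FL against dCTD, of the shared ones), Rb1 and Rbl2 passed as lower with FL than with LacZ (both -0.14, adjusted p = 0.00146 and 0.00157). Rb1 then also passed as lower with FL than with dCTD (-0.12, adjusted p = 0.0191). Under that scaling 4587 of all genes were higher and 7146 lower with FL than with LacZ, beside 5637 and 5162 here, and 3016 and 5324 for FL against dCTD, beside 3887 and 3172 here.

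**Figure D2:**
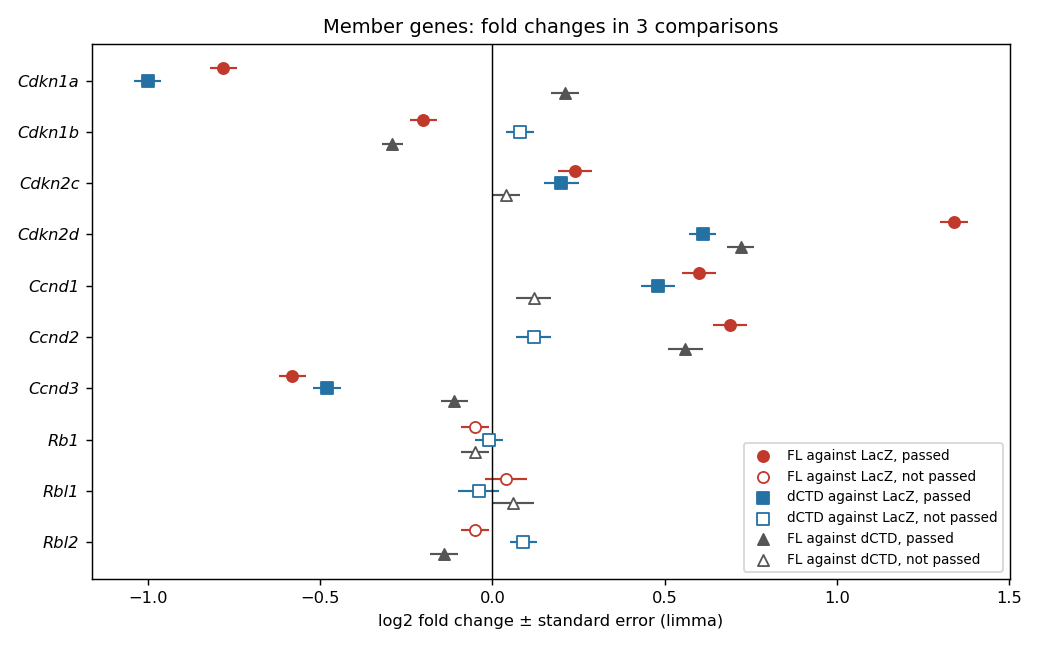
Log2 fold change ± standard error (limma) of the 10 genes for FL against LacZ (red circles), dCTD against LacZ (blue squares) and FL against dCTD (grey triangles), filled where the adjusted p was under 0.05. Cdkn1a (0.582 and 0.499 of the LacZ level) and Cdkn2d at 1.34 and 0.61 lie farthest from 0, and the pocket proteins lie near it.

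The make-up of the D cyclins and of the CDK inhibitors differed between the groups more than that of the pocket proteins, without a test of that contrast. Levels were compared between genes as normalized counts per kilobase of exon, taken over the union of a gene's exons in GENCODE M21, which may be longer than the transcripts these cells made. Ccnd3 made up 84.0%, 86.0% and 84.5% of the summed D cyclin level with LacZ, 71.2%, 71.3% and 70.1% with FL, and 75.0%, 74.6% and 76.1% with dCTD. The Ccnd1 share lay between 10.85% and 12.03% in LacZ, 21.3% and 23.2% in FL, and 19.1% and 20.5% in dCTD libraries. The summed level was 5202 ± 295 per kilobase with LacZ (SD, n = 3), 4154 ± 89.7 with FL and 4225 ± 123 with dCTD. No library of FL or dCTD reached the LacZ libraries in the sum or in the Ccnd3 share. An exact two-sided permutation test gave p = 0.1 for these comparisons with LacZ, the smallest that 3 against 3 libraries allow.

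Among the 4 inhibitors Cdkn1a held between 89.9% and 90.3% of the summed level per kilobase in LacZ, 77.0% and 78.1% in FL, and 77.9% and 79.1% in dCTD libraries. The share of Cdkn2d was 3.66% ± 0.141 with LacZ (SD, n = 3), 13.7% ± 0.482 with FL and 9.79% ± 0.418 with dCTD. Cdkn1b took 4.70% ± 0.131, 6.04% ± 0.160 and 8.66% ± 0.241 in the same order. The sum over the inhibitors was 42128 ± 731, 28456 ± 618 and 24250 ± 400 per kilobase, without overlap between groups, and it follows Cdkn1a, its main part. For the pocket proteins Rb1 held 54.8%, 54.6% and 53.3% on average, Rbl2 40.69%, 40.61% and 42.33% and Rbl1 4.55%, 4.83% and 4.35%. Their sum was 4034 ± 65.1, 3903 ± 87.0 and 4136 ± 156 per kilobase.

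**Figure D3:**
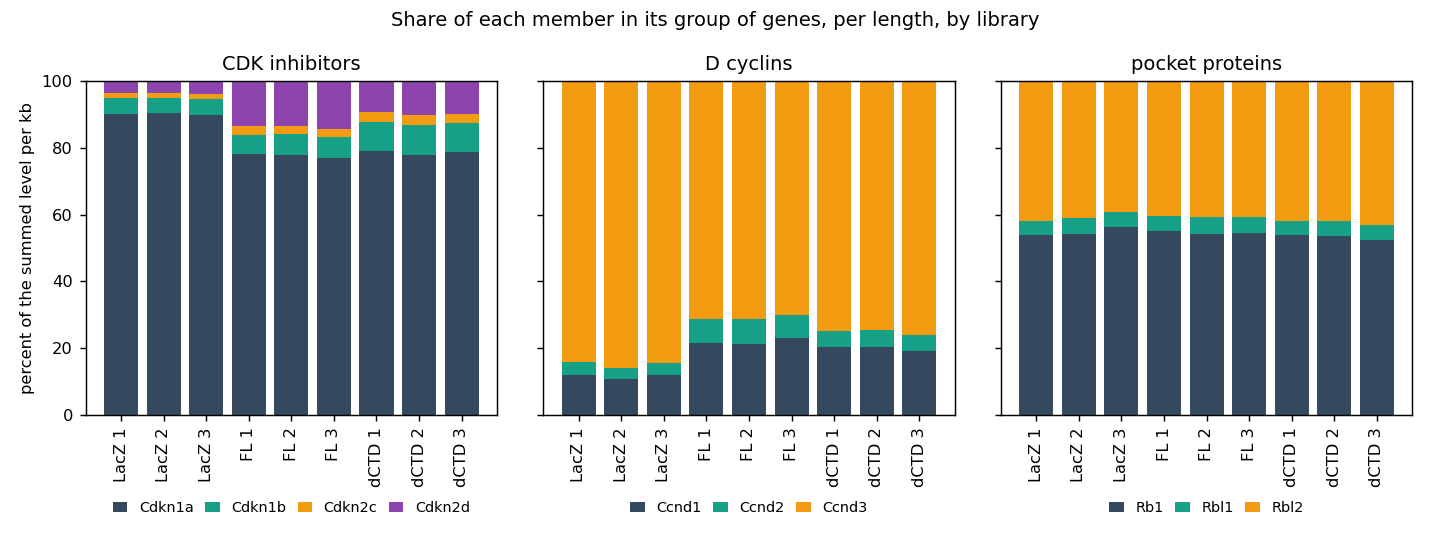
Stacked bars give, for each of the 9 libraries, the percent that each gene takes of the summed normalized counts per kilobase of its group, for CDK inhibitors, D cyclins and pocket proteins. Ccnd3 takes 84.0% to 86.0% with LacZ and less with both PGC-1α forms, and Cdkn2d takes more.

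In order of level per kilobase, LacZ libraries had Cdkn1a (37985 ± 711, SD, n = 3), Ccnd3 (4415 ± 288), Rb1 (2210 ± 80.2), Cdkn1b (1980 ± 23.4), Rbl2 (1641 ± 42.2), Cdkn2d (1543 ± 66.4), Cdkn2c (620.3 ± 13.1), Ccnd1 (603 ± 32.9), Ccnd2 (185 ± 12.3) and Rbl1 (183.5 ± 5.47). The neighbours Cdkn2c and Ccnd1, and Ccnd2 and Rbl1, overlapped in their libraries. With FL, Cdkn2d (3898 ± 162) stood next after Cdkn1a, above Ccnd3 (2942 ± 41.8), and no neighbours overlapped. With dCTD, Cdkn2d was at 2373 ± 62.3, below Ccnd3 at 3179 ± 113, and Rb1 (2206 ± 113) and Cdkn1b (2100 ± 48.9) overlapped. Ccnd1 stood above Cdkn2c with both forms.

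The other genes of the pathway were read from lists. These were chosen with earlier results of these data known, and some genes, such as Cdk1 and Cdc20, stand in several lists. Of 20 E2F target genes of S phase, 14 rose and 1 fell with FL (median log2 fold change 0.25, beside -0.01 over all tested genes), where 30.9% of all tested genes rose and 28.3% fell. With dCTD 6 rose and 3 fell (median -0.02), against 23.1% and 21.7% of all genes, and 13 of the 20 were higher and 0 lower with FL than with dCTD, against 21.4% and 17.5%. Rrm2, a subunit of ribonucleotide reductase, rose by 1.29 ± 0.04 with FL and by 0.27 ± 0.04 with dCTD (limma, adjusted p = 1.39e-22 and 1.82e-06). Rrm1, its partner, rose by 0.64 ± 0.04 and 0.37 ± 0.04 (adjusted p = 7.15e-15 and 1.07e-08). Uhrf1, which helps to copy DNA methylation, rose with FL (0.54 ± 0.06, adjusted p = 1.91e-09) and had -0.03 with dCTD (adjusted p = 0.761).

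Of 10 E2F and DP genes, 3 rose and 6 fell with FL, where 30.9% of all tested genes rose and 28.3% fell. With dCTD 2 rose and 5 fell, against 23.1% and 21.7% of all tested genes. E2f2, an activating E2F, fell most, from 12229 ± 221 normalized counts with LacZ (SD, n = 3) to 5435 ± 109 with FL and 4891 ± 195 with dCTD (-1.17 ± 0.04 and -1.33 ± 0.04, limma, adjusted p = 2.70e-22 and 1.44e-18). The repressor E2f6 rose (0.50 ± 0.04 and 0.60 ± 0.04, adjusted p = 7.10e-12 and 4.94e-12), and the repressor E2f8 fell (-0.47 ± 0.05 and -0.52 ± 0.05, adjusted p = 2.02e-09 and 8.22e-09). E2f7, a further repressor, was 0.55 ± 0.07 higher with FL than with dCTD (adjusted p = 6.79e-07). Against LacZ it rose with FL (0.34 ± 0.07, adjusted p = 2.82e-04). Its call as lower with dCTD (-0.22 ± 0.08, adjusted p = 0.0242) was lost in 4 of 14 alternative settings.

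Among 12 genes for CDKs, E and A cyclins and CDK activation, 7 rose and 2 fell with FL, and 4 rose and 1 fell with dCTD. Over all tested genes 30.9% rose and 28.3% fell with FL, and 23.1% rose and 21.7% fell with dCTD. Ccne2, a cyclin E, rose with both (0.92 ± 0.07 and 0.45 ± 0.08, limma, adjusted p = 9.09e-12 and 2.73e-05). Cdk2 fell with both (-0.35 ± 0.04 and -0.23 ± 0.04, adjusted p = 1.94e-08 and 4.62e-05). Ccna2, cyclin A of S phase, rose with FL (0.61 ± 0.05, adjusted p = 2.96e-11), and its call with dCTD (0.14 ± 0.05, adjusted p = 0.0446) was lost in 8 of 14 alternative settings. Cdk4 and Cdk6, the kinase partners of the D cyclins, were picked after their values were seen. Cdk4 did not pass (-0.04 ± 0.04 and 0.03 ± 0.04, adjusted p = 0.371 and 0.597). Cdk6 rose slightly with FL (0.13 ± 0.04, adjusted p = 0.0119) and did not pass with dCTD (0.07 ± 0.05, adjusted p = 0.259). Of 6 genes of the MuvB complex, which joins Rbl2 and E2F factors in resting cells, with B-Myb, 3 rose and 1 fell with FL, and 2 rose with dCTD. For so few genes these counts were near the background, since 59.2% and 44.8% of all tested genes passed in these comparisons. Lin37, the MuvB subunit needed for repression, rose with both (1.02 ± 0.05 and 0.53 ± 0.06, adjusted p = 2.82e-17 and 6.08e-08).

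The markers of cycling cells moved with FL as well. All 12 rose with FL (median 0.59), 2 rose and 1 fell with dCTD (median 0.09), and all 12 were higher with FL than with dCTD. Their summed level ranged from 16324 to 18495 normalized counts in the LacZ libraries, from 24625 to 26515 in the FL libraries and from 18081 to 18542 in the dCTD libraries; none was at 0. Of 13 tested of 15 myoblast and reserve cell markers, 4 rose and 3 fell with each form, and the summed level ranged from 192191 to 199869 in LacZ, 156390 to 162004 in FL and 157851 to 163511 in dCTD libraries, with Dlk1 at 0. Itga7 made up most of that sum, and without it the range was 71221 to 71803 in LacZ, 75053 to 79385 in FL and 73597 to 75975 in dCTD libraries, so that the order turned. Of 7 tested of 8 fibroblast markers, 2 rose and 1 fell with FL and 1 rose with dCTD, at 587829 to 605658, 580890 to 594573 and 587274 to 606103 in LacZ, FL and dCTD libraries. Without Col3a1, their most abundant gene, these sums were 117933 to 120483, 121250 to 127412 and 128101 to 130228. The gene that rose with dCTD was Ly6a, with a mean of 29044 with LacZ and 40847 with dCTD. Whether the cultures held fibroblasts was not tested. Of the 17 myotube markers 15 fell with FL, and 13 fell and 1 rose with dCTD (medians -0.88 and -0.45). Over all tested genes 30.9% rose and 28.3% fell with FL, and 23.1% rose and 21.7% fell with dCTD. Between the forms, 21.4% were higher and 17.5% lower with FL than with dCTD. The counts of the myoblast and reserve cell list were near these shares. The part of the markers of all these lists in the values of Cdkn1a, Ccnd1, Ccnd2 and Ccnd3 was not tested.

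**Figure D4:**
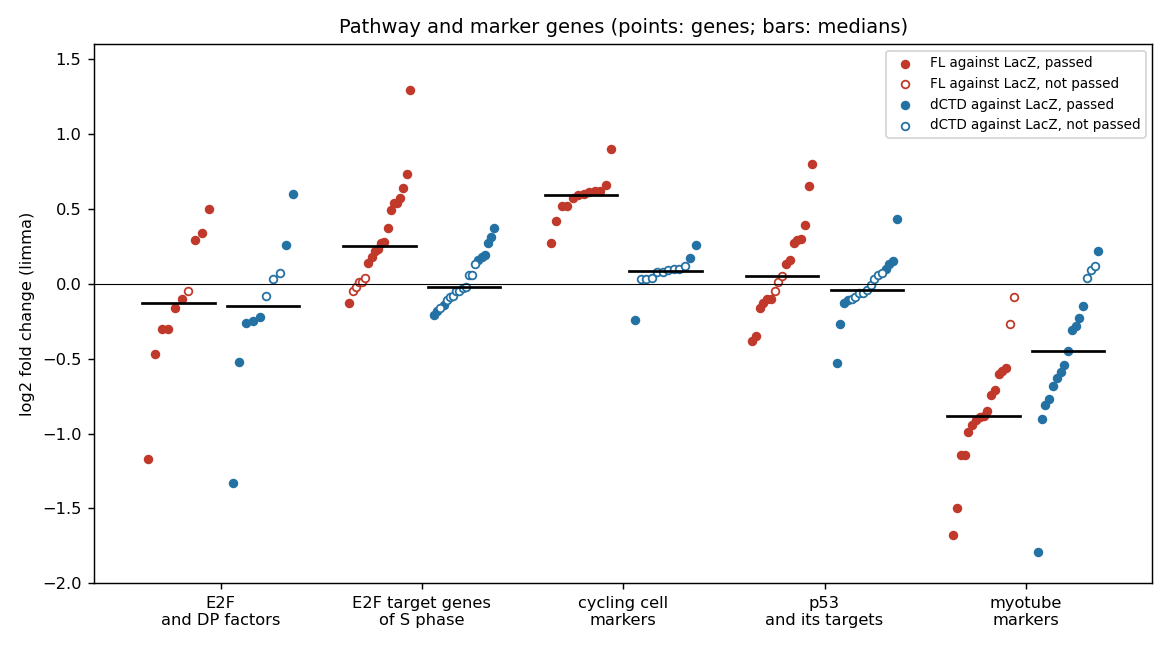
Log2 fold changes against LacZ (limma) of the genes of 5 lists, with FL in red and dCTD in blue, filled where the adjusted p was under 0.05; black bars are medians. Cycling cell markers lie above 0 with FL (median 0.59) and near 0 with dCTD (median 0.09), and myotube markers lie mostly below 0 with both.

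Regulators of these genes were read too. p53, encoded by Trp53, activates Cdkn1a, and in the list of 17 genes of p53, its regulators and its other targets 8 rose and 6 fell with FL, and 4 rose and 4 fell with dCTD (medians 0.05 and -0.04). Over all tested genes 30.9% rose and 28.3% fell with FL, and 23.1% rose and 21.7% fell with dCTD, so the dCTD counts were near the background. Trp53 itself, printed outside the rule for named genes, rose with FL (0.29 ± 0.04, limma, adjusted p = 1.93e-07). Trp53 did not pass with dCTD (-0.06 ± 0.04, adjusted p = 0.224). The activity of p53 was not measured, and its part in the values of Cdkn1a was not tested. Btg2, an antiproliferative target, rose (0.80 ± 0.04 and 0.15 ± 0.04, limma, adjusted p = 6.57e-17 and 0.00561). Sesn2, a stress response target, rose with FL (0.65 ± 0.05, adjusted p = 6.01e-13) and did not pass with dCTD (-0.04 ± 0.06, adjusted p = 0.665). Ei24 fell (-0.38 ± 0.04 and -0.27 ± 0.04, adjusted p = 1.80e-10 and 3.47e-06). Gadd45a, also printed outside the rule, fell with both (-0.35 ± 0.04 and -0.53 ± 0.04, adjusted p = 4.96e-09 and 4.13e-11). Of 22 tested transcriptional regulators of Cdkn and cyclin D genes, 7 rose and 10 fell with FL, and 3 rose and 8 fell with dCTD. Beside the shares of all tested genes given above, the part that rose with FL was near the 30.9% of all genes. The muscle factor Mef2c fell (-1.29 ± 0.04 and -0.84 ± 0.04, adjusted p = 1.65e-23 and 1.43e-14), as did Mxd1, an antagonist of Myc (-1.33 ± 0.04 and -1.10 ± 0.04, adjusted p = 2.15e-22 and 1.03e-16). Fos, an early growth response factor, rose with FL (1.84 ± 0.07, adjusted p = 2.22e-20) and was higher with FL than with dCTD (1.64 ± 0.07, adjusted p = 2.19e-16). With dCTD against LacZ it did not pass (0.19 ± 0.08, adjusted p = 0.0599).

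Cyclins and inhibitors are also set by degradation, which RNA does not show. Of 15 genes of the ubiquitin ligases that act on them, 5 rose and 4 fell with FL, and 4 rose and 2 fell with dCTD. These counts were near the background, since 59.2% and 44.8% of all tested genes passed in the same comparisons. Fbxw7, which marks cyclin E, fell with both (-0.97 ± 0.04 and -0.77 ± 0.04, limma, adjusted p = 1.44e-19 and 2.38e-14). Fbxo31, which marks cyclin D1, rose with both (0.56 ± 0.04 and 0.19 ± 0.04, adjusted p = 7.92e-13 and 0.00117), and so did Fzr1, an activator of the anaphase-promoting complex (0.66 ± 0.04 and 0.33 ± 0.05, adjusted p = 6.03e-14 and 3.97e-06).

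For 3 of the genes, those with the most similar pattern were sought among 12372 genes by Pearson's r of log2(normalized count + 1) over the 9 libraries, which share 3 groups. The closest to Cdkn1a were Alox5 (r = 0.9968), Mfsd7a (0.9948) and Padi4 (0.9939), all lower with both forms and lowest with dCTD. The closest to Ccnd1 were Uqcr10 (0.9879), Mrps9 (0.9874) and Hoxc10 (0.9869). Acsl4 (0.9599) and Dr1 (0.9592) were closest to Rb1, and their log2 differences between groups were at most 0.08 in size. These are descriptions of 9 libraries with no test.

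Some exons are shared with genes on the opposite strand, and whether the counting used strand is not given in the sources used here, although the libraries were made with a stranded kit. LTO1 covers 23.36% of the Ccnd1 exon length, and the part of its reads in the Ccnd1 count cannot be told apart; LTO1 itself fell with FL and dCTD (-0.41 ± 0.04 and -0.25 ± 0.04, limma, adjusted p = 1.10e-09 and 3.93e-05), opposite to Ccnd1. Aktip and Gm45464 cover 9.17% and 11.8% of Rbl2, Rcbtb2 and Lpar6 8.11% and 6.78% of Rb1, and Bysl 4.11% of Ccnd3. Aktip was lower with FL than with dCTD (-0.26 ± 0.04, limma, adjusted p = 2.07e-06), as Rbl2 was, and fell with FL against LacZ (-0.21 ± 0.04, adjusted p = 1.86e-05). Rcbtb2 and Lpar6 fell with FL (-0.22 ± 0.04 and -0.16 ± 0.06, adjusted p = 3.36e-05 and 0.019), and Bysl rose with FL (0.31 ± 0.04, adjusted p = 7.92e-08), opposite to Ccnd3. The part of these genes' reads in the counts of Rbl2, Rb1 and Ccnd3 was not tested. The authors' deposited table lists the same 7 members with FL and the same 5 with dCTD at an adjusted p under 0.05.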

How the data were processed

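Per the submitters' processing notes, the mouse build was mm10 and the tools were DESeq2 2.11.40.6, featureCounts 1.6.4, STAR 2.7.2b, FastQC 0.72 and Trim Galore 0.4.3.1; no settings are listed. The authors deposited a signal, headed as featureCounts counts, which held read counts divided by a size factor: 100% of 317312 values above 0 were whole reads within 0.001 reads. Per the file headers, the deposited tables also hold log2 fold changes, a Wald score and p-values, used only where credited. FL and dCTD were each compared with LacZ within their own table by limma 3.58.1 (R 4.3.3; trend and robust moderation) on log2(value + 1), leaving out genes whose mean was under 10, with Benjamini-Hochberg adjustment over all genes. FL and dCTD were compared in 1 fit of 9 libraries on recovered reads scaled together by median-of-ratios factors, since their tables were normalized separately; levels per library are on that scale. Alternatives were edgeR 4.0.16, DESeq2 1.42.0, other pseudocounts (0.5 and 5), scalings and filters, the replicate block, and each library left out. Named genes are the 10 members, Ppargc1a, lists of up to 4 genes in full, and of each pathway list up to 3 genes ranked first by p in FL against LacZ and 2 in FL against dCTD (some of these are not printed), and the 3 genes most correlated with each of Cdkn1a, Ccnd1 and Rb1, of which 1 is not reported here. Members and lists were chosen with earlier results of these data known. The steps were tested on simulated data for each comparison, with 200 genes changed. The p-values measure the spread between 3 libraries a group. Positions are counted from 1.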

Additional observations from a re-analysis of the deposited data

How the results depend on the processing

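Of 450 values of the 10 genes under the alternatives, 433 stayed on their side of the threshold, 12 gained a call, 5 lost one (Ccnd3 for FL against dCTD, with 1 library left out) and 0 turned from a call in 1 direction to the other. Among the 433, 7 values that had no call changed sign. The count of members that passed stayed at 7 for FL against LacZ, except 9 with scaling by total count without Ppargc1a. In both other comparisons it was 5 to 7, and the cause was not tested. Counts of all genes stayed within 1.5 times the reported 10799, 8094 and 7059. With the replicate block they were 10720, 7396 and 6732, and no call of a member changed. Same-numbered libraries correlated in their deviations at -0.176 to 0.088, others at -0.181 to 0.155, and 1 of 9 libraries correlated best with its own number, so the numbers were not taken as pairs. The fit of FL against dCTD on 6 libraries, added after seeing the data, passed Ccnd1 (adjusted p = 0.0373, limma).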
